A study of Mus musculus with 12 samples.

Results

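The tumour necrosis factor (TNF) superfamily and the TNF receptor superfamily were followed in MC38CEA cells, a mouse colon adenocarcinoma line. Members were taken by gene symbol, as every gene of the count table named *Tnfsf* or *Tnfrsf* with a number, together with *Fas*, *Fasl*, *Cd40*, *Cd40lg*, *Ltbr*, *Lta*, *Ltb*, *Cd70* and *Cd27*. This gave 41 of the 43271 genes listed, namely 16 ligands, 24 receptors and *Tnfsf13os*, a transcript on the strand opposite *Tnfsf13* that shares the naming pattern but codes for no ligand. Of the 41 members, 17 had a mean raw count of at least 10 over the 12 libraries and were tested, and 24 fell below it. The rule used gene symbols and mean counts and no measured difference, but the members were chosen with earlier results of these data known. *Cd40* reached the minimum only through its stimulated libraries.

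Poly(A) RNA was sequenced from pools of MC38CEA cells transduced with lentiviral shRNA vectors, with 3 libraries in each of 4 groups. A17.2 cells carried an shRNA directed at *Adam17* and control cells carried a control shRNA. Both kinds received a mixture of IL1β and IFNγ (10 ng/ml of either cytokine) for 6 h or no cytokine, so the groups were A17.2 with cytokines, A17.2 unstimulated, control with cytokines and control unstimulated. The comparisons asked how the cytokines changed each kind of cell and how A17.2 cells differed from control cells. Nothing states that either vector was introduced into more than 1 population, and no untransduced cells were measured. Whatever else differed between A17.2 and control cells therefore cannot be told apart from the shRNA. The sources disagree on the control vector: the notes to the libraries name SHC016 and describe it as cytotoxic with a cassette that is lost, and the methods of the study name SHC002. Nothing states that the libraries of a group came from separate cultures, and p-values then reflect the spread among libraries alone, which may be technical. In bulk RNA, fewer cells with a transcript and less of it per cell cannot be told apart.

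Ligands of the TNF superfamily are trimeric proteins, mostly made as membrane proteins, and bind receptors with cysteine-rich domains outside the cell. One class of receptors carries a death domain inside the cell and can recruit caspase-8 through FADD, a second class binds TRAF adaptors and feeds NF-κB and JNK signalling, and decoy receptors bind ligand without passing a death signal on. Several ligands and receptors are cut from the cell surface by metalloproteases, and ADAM17, the product of the gene that A17.2 targets, is the main protease that releases TNF and sheds both TNF receptors. Genes that answer to interferons often carry promoter elements called GAS or ISRE, and IL1β activates NF-κB.

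The libraries held 16592831 to 35861103 counts, and the members took 0.0570% to 0.107% of them. Levels are given as CPM, read counts relative to the library size after TMM scaling, with libraries in the order of replicates 1, 2 and 3. *Adam17* had 53.4, 43.6 and 40.0 CPM in stimulated A17.2 cells, against 129, 103 and 96.7 CPM in stimulated control cells, while without cytokines A17.2 cells had 30.6, 29.5 and 27.2 CPM, against 74.7, 67.5 and 76.0 CPM in control cells. The log2 fold change of A17.2 against control was -1.26 ± 0.15 with cytokines and -1.32 ± 0.15 without (± SE, adjusted p = 0.00103 and 0.000642), so the libraries matched their labels in *Adam17*. For *Adam10* the log2 fold changes were -0.09 ± 0.19 and -0.08 ± 0.19, neither past the threshold. The study reported by RT-qPCR and western blot that A17.2 also diminished ADAM10 expression in MC38CEA cells. These libraries did not show that decrease. Of 10 fixed epithelial and colon markers only *Lgals4* had a mean count of at least 10, with *Epcam* at 5 reads and *Krt20* at 4 reads in all libraries together, whereas all 5 mesenchymal markers were measured. The defining epithelial transcripts were thus near absent from cells labelled as colon adenocarcinoma. Of 9 leukocyte markers, *Itgam* and *Cd79a* passed the minimum, while *Ptprc* had 11 reads in all and *Cd3e* had 0. *Adgre1*, also on that list, was not among the genes of the count table and was not measured.

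Promoters of some members that rose with cytokines in at least 1 kind of cell are shown first. *Tnfrsf1b*, called in A17.2 cells only, is printed, while *Tnfrsf9*, called in both kinds of cell, is described without its sequence. Whether any element has a part in a response was not tested. RefSeq promoter windows on GRCm38.p6 matched 11 of the 17 tested members, with 12 windows, since *Tnfrsf9* had a pair of start sites. *Cd40*, *Tnfrsf10b*, *Tnfrsf22*, *Tnfsf12*, *Tnfsf13os* and *Tnfsf9* had no window and were not searched. The 250 bases before each start site were searched on both strands, with any overlap of matches allowed, for GAS (TTCNNNGAA), ISRE (GAAA repeated after a gap of 2 bases) and the NF-κB consensus. GAS was found in 4 of the 12 windows, against 7.02% of all 32851 windows of this length, ISRE in 2 of 12, against 2.98%, and the NF-κB consensus in 1 of 12, against 7.25%. The windows below run 5′ to 3′ along the gene's own strand and end at the base before the start site, with matches in capitals. They are those of *Fas* (chr19:34290409-34290658, plus strand), *Tnfrsf1a* (chr6:125349473-125349722, plus strand), *Tnfrsf14* (chr4:154928078-154928327, minus strand), *Tnfrsf1b* (chr4:145246871-145247120, minus strand) and *Tnfsf10* (chr3:27316827-27317076, plus strand).
Fas: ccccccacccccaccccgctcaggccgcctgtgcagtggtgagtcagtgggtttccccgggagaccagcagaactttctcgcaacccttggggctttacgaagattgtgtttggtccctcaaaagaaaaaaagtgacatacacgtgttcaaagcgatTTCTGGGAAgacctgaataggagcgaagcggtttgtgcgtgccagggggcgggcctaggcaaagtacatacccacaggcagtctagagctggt
Tnfrsf1a: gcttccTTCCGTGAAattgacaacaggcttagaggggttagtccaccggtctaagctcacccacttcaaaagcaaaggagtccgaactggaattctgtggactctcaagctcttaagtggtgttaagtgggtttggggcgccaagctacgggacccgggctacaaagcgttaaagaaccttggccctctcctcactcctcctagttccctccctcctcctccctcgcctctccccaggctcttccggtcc
Tnfrsf14: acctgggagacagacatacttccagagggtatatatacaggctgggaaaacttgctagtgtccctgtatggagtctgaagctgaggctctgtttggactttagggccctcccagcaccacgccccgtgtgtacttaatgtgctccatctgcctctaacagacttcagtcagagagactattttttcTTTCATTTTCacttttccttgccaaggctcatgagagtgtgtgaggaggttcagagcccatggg
Tnfrsf1b: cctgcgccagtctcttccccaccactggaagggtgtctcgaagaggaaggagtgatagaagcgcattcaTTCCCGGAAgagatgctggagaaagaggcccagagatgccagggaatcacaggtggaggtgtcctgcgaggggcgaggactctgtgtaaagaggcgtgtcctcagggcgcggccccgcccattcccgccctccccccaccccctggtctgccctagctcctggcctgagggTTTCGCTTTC
Tnfsf10: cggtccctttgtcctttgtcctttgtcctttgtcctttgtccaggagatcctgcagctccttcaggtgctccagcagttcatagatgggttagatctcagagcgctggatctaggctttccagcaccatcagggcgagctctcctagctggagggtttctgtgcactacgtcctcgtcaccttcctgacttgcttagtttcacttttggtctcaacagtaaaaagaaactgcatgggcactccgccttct
The capitals begin 93 bases before the start in *Fas* and 244 bases before it in *Tnfrsf1a*, both GAS. In *Tnfrsf14* they are an ISRE on the other strand, 64 bases before the start. *Tnfrsf1b* holds a GAS 181 bases and an ISRE on the other strand 10 bases before the start. The second window of *Tnfrsf9* (chr4:150927749-150927998, plus strand) holds the GAS TTCCAAGAA 136 bases and overlapping NF-κB matches 43 and 42 bases before the start. In GENCODE M21 the windows of *Tnfrsf1a* and *Tnfrsf14* and both windows of *Tnfrsf9* lie inside the span of the gene, and those of *Tnfsf10* and *Tnfrsf12a* reach into it. The window of *Tnfsf10* held none of the 3 elements. Neither did the first window of *Tnfrsf9* or those of *Ltbr*, *Tnfrsf12a*, *Tnfrsf21*, *Tnfrsf23* and *Tnfrsf4*. A match describes letters in the reference and is not evidence of binding.

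The cells expressed mostly receptors. Of the 24 receptors 13 were tested, and of the 16 ligands only *Tnfsf9*, *Tnfsf10* and *Tnfsf12*. Per kilobase of exon, *Tnfrsf12a*, the receptor Fn14 for the ligand TWEAK, had the highest level of the 17 tested members in every group, at 154 ± 40.1 CPM per kilobase in unstimulated A17.2 cells and 184 ± 65.0 CPM per kilobase in unstimulated control cells (SD, n = 3 each). In the unstimulated groups the receptor for lymphotoxin β, *Ltbr*, and TNF receptor 1, *Tnfrsf1a*, came next and overlapped, with *Ltbr* at 40.6 ± 5.48 CPM per kilobase in A17.2 cells and 44.9 ± 3.87 CPM per kilobase in control cells, and *Tnfrsf1a* at 36.9 ± 8.28 CPM per kilobase in A17.2 cells and 44.8 ± 4.77 CPM per kilobase in control cells. TNF receptor 2, *Tnfrsf1b*, ranked 4 in both unstimulated groups, at 10.5 ± 1.15 CPM per kilobase in A17.2 cells and 14.1 ± 2.43 CPM per kilobase in control cells. With cytokines *Tnfrsf1a* ranked 2, at 102 ± 4.48 CPM per kilobase in A17.2 cells and 103 ± 13.2 CPM per kilobase in control cells. *Fas* ranked 14 of 17 in both unstimulated groups, at 0.505 ± 0.306 CPM per kilobase in A17.2 cells and 0.499 ± 0.192 CPM per kilobase in control cells, and ranked 4 in both stimulated groups, at 41.3 ± 25.9 and 28.8 ± 16.2 CPM per kilobase in the same order of cells. The stimulated levels of *Tnfrsf12a* and *Tnfrsf1a* overlapped in both kinds of cell, so their order does not stand beyond the spread.

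**Figure D1:**
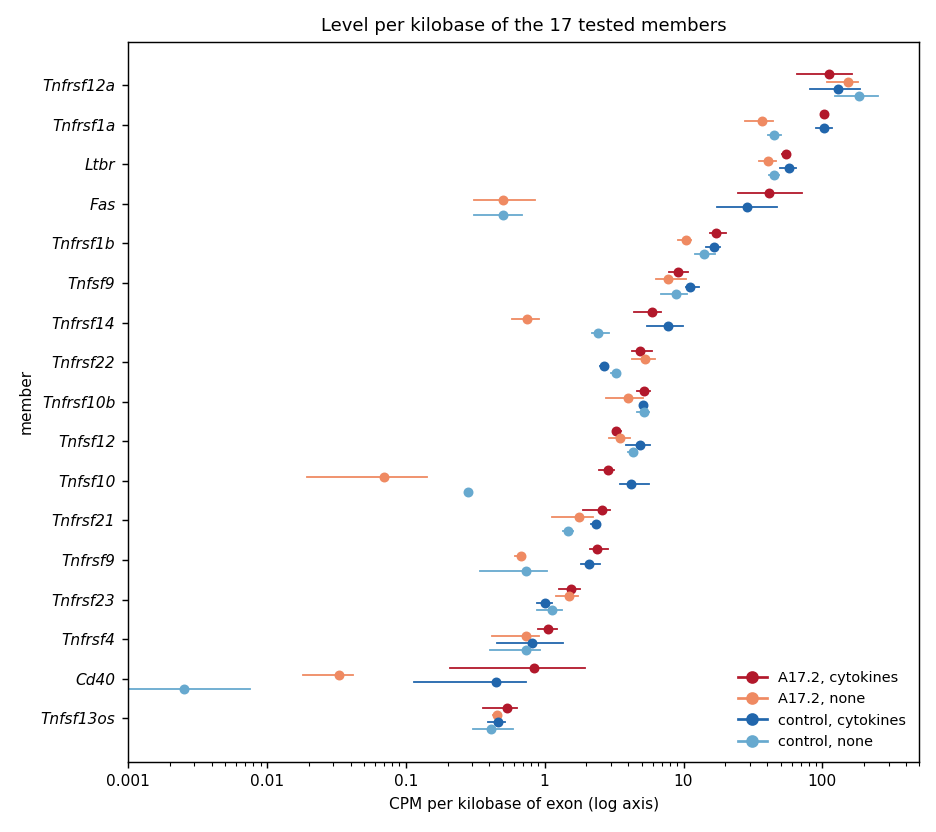
Level of each of the 17 tested members in CPM per kilobase of exon (log axis), with points for the mean of 3 libraries and lines from the lowest to the highest library, in the order A17.2 with cytokines, A17.2 unstimulated, control with cytokines and control unstimulated. *Tnfrsf12a* has the highest mean in every group, but its line overlaps that of *Tnfrsf1a* in both stimulated groups. *Fas*, *Tnfsf10* and *Cd40* move far to the right with cytokines (the line of *Cd40* in unstimulated control cells starts at 0 and is drawn from the edge).

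The 24 members below the minimum were 13 ligands and 11 receptors, with 1 to 70 reads each over all 12 libraries. The highest of them was *Tnfrsf25*, a death domain receptor, with 70 reads, followed by *Tnfsf13b* (BAFF) with 40 reads, *Tnfrsf26* with 29 reads and *Tnfsf13* (APRIL) with 28 reads. The ligand of FAS, *Fasl*, had 8 reads, the ligand of CD40, *Cd40lg*, had 1 read and the ligand of *Tnfrsf4*, *Tnfsf4*, had 3 reads. The lymphotoxin genes *Lta* and *Ltb*, whose products bind the receptor encoded by *Ltbr* as a joint complex, had 26 and 15 reads. *Tnfsf14* (LIGHT), a ligand of *Ltbr* and *Tnfrsf14*, had 2 reads. These ligands were thus barely or not detectable at this depth in cells that expressed their receptors. The others were *Cd70* with 3 reads and *Cd27* with 7, *Tnfrsf11a* with 4 and the decoy *Tnfrsf11b* with 10, *Tnfrsf13b* with 3, *Tnfrsf13c* with 21, *Tnfrsf17* with 5, *Tnfrsf18* with 3, *Tnfrsf19* with 7, *Tnfrsf8* with 10, *Tnfsf11* with 5, *Tnfsf15* with 4, *Tnfsf18* with 14 and *Tnfsf8* with 6 reads. All 24 were too low to test. *Tnf* itself, whose symbol the naming pattern does not take, had 39 raw reads over all libraries and was too low to test. By replicate 1, 2 and 3 it had 13, 2 and 4 reads in stimulated and 6, 1 and 1 in unstimulated A17.2 cells. Control cells had 3, 2 and 4 reads with cytokines and 2, 1 and 0 without. Most reads of the A17.2 cells thus came from replicate 1.

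Cytokines raised a group of members in both kinds of cell. In A17.2 cells 7 of the 17 tested members rose and 0 fell, where 4.16% of all 14990 genes tested rose and 0.387% fell. In control cells 6 rose and 0 fell, where 3.4% of all genes rose and 0.153% fell. The 6 members that rose in control cells, *Fas*, *Tnfsf10*, *Cd40*, *Tnfrsf14*, *Tnfrsf9* and *Tnfrsf1a*, also rose in A17.2 cells, and *Tnfrsf1b* passed the test only there. Both counts include *Cd40*, which entered the test only through its stimulated libraries and had to differ in this direction. Without it, an alternative added after seeing the data, 6 of 16 members rose in A17.2 cells and 5 of 16 in control cells, with median log2 fold changes of 0.49 and 0.29. The median log2 fold change of the 17 members was 0.54 in A17.2 cells, against -0.01 over all genes, and 0.35 in control cells, against -0.01. Deviations from the group means went together in libraries of the same number, and with the number as a block 10 members rose and 1 fell in A17.2 cells, where 12.4% of all genes rose and 5.14% fell. In control cells 8 rose and 1 fell with the block, where 11.6% of all genes rose and 7.99% fell.

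**Figure D2:**
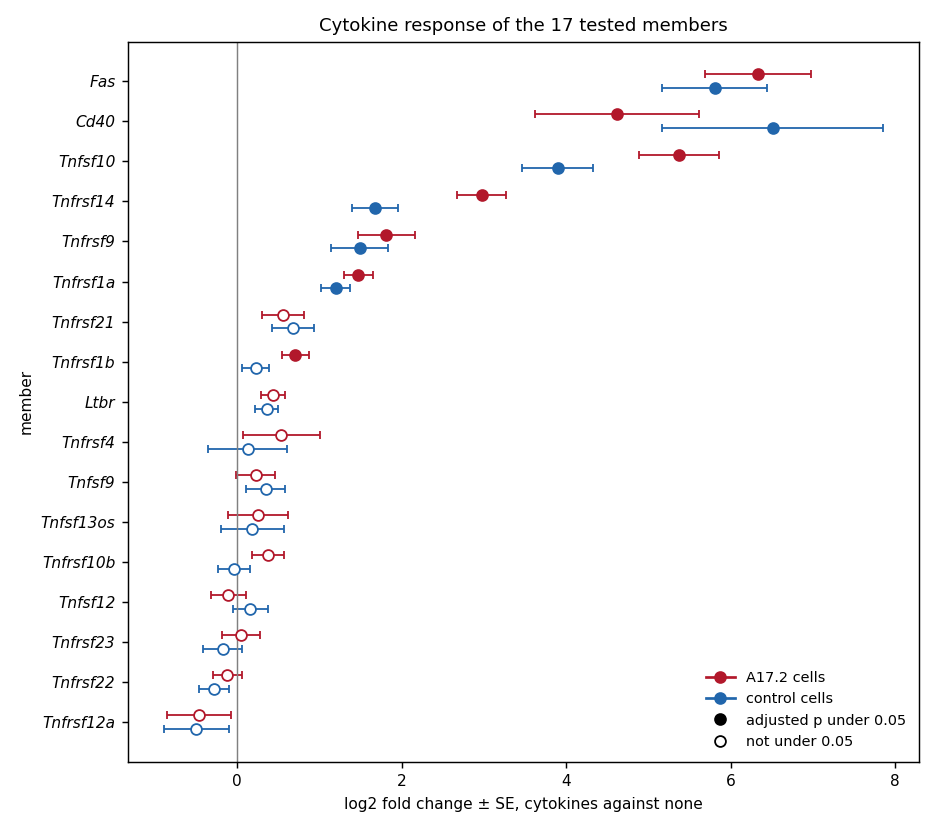
Log2 fold change of cytokines against none for the 17 tested members (horizontal axis, bars ± SE), with A17.2 cells above control cells for each member and filled points for an adjusted p under 0.05 in the fit without the block. *Fas*, *Cd40* and *Tnfsf10* lie furthest to the right, *Tnfrsf14*, *Tnfrsf9* and *Tnfrsf1a* follow, and *Tnfrsf1b* is filled in A17.2 cells only.

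Among the ligands, *Tnfsf10*, which encodes TRAIL, rose strongly. It had 16.7, 12.9 and 15.7 CPM in stimulated A17.2 cells, against 0.248, 0.102 and 0.747 CPM in unstimulated A17.2 cells. In control cells it had 29.5, 18.3 and 18.6 CPM with cytokines, against 1.5, 1.54 and 1.4 CPM without. The stimulated and unstimulated libraries were far apart in both kinds of cell. This was a log2 fold change of 5.37 ± 0.49 in A17.2 cells, a fold of 41.3, and 3.90 ± 0.43 in control cells, a fold of 14.9 (adjusted p = 3.51e-05 and 0.000264), and both calls were kept when any 1 library was left out. In A17.2 cells the value was then 4.89 to 6.38, highest without unstimulated A17.2 replicate 3, and in control cells 3.63 to 4.02. The other 2 tested ligands did not pass the test in either kind of cell. *Tnfsf9*, the 4-1BB ligand, averaged 11.7 ± 1.99 CPM with cytokines and 10.0 ± 2.89 CPM without in A17.2 cells, and 14.4 ± 1.85 and 11.3 ± 2.37 CPM in control cells. *Tnfsf12*, which encodes TWEAK, averaged 4.93 ± 0.377 CPM with cytokines and 5.31 ± 0.944 CPM without in A17.2 cells, and 7.35 ± 1.46 and 6.58 ± 0.445 CPM in control cells (SD, n = 3 each). Exons of *Tnfsf12* are shared on the same strand with the readthrough gene *Tnfsf12Tnfsf13*, and those of *Tnfsf9* overlap a gene on the other strand, so their counts may be split or mixed.

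Of the death domain receptors, *Fas* had the largest cytokine response of all tested members in A17.2 cells. *Fas* had 147, 51.3 and 57.3 CPM in stimulated A17.2 cells, against 1.77, 0.643 and 0.712 CPM in unstimulated A17.2 cells. Control cells had 97.7, 36.2 and 44.1 CPM with cytokines, against 1.43, 1.03 and 0.636 CPM without. Replicate 1 was the highest library of each of the 4 groups, and no stimulated library overlapped an unstimulated one. Expressed as a log2 fold change the response was 6.33 ± 0.64 in A17.2 cells, a fold of 80.6, and 5.80 ± 0.63 in control cells, a fold of 55.9 (adjusted p = 8.91e-05 and 0.000232). Leaving out any 1 library left it between 5.68 and 6.93 in A17.2 cells and between 5.24 and 6.16 in control cells. Among all 14990 genes tested, *Fas* ranked 38 from the top by log2 fold change in A17.2 cells and 30 in control cells.

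*Tnfrsf1a*, the TNF receptor that most cell types carry, had 253, 275 and 268 CPM in stimulated A17.2 cells, against 72.2, 99.8 and 114 CPM in unstimulated A17.2 cells. In control cells the values were 233, 265 and 302 CPM with cytokines, against 105, 114 and 129 CPM without. Stimulated and unstimulated libraries were clearly separate in each kind of cell, whereas A17.2 and control libraries overlapped in both states. Its log2 fold change was 1.47 ± 0.18 in A17.2 cells, a fold of 2.78, and 1.2 ± 0.18 in control cells, a fold of 2.29 (adjusted p = 0.000325 and 0.0021). *Tnfrsf10b*, the death receptor of TRAIL in the mouse, had 25.3, 27.7 and 31.4 CPM in stimulated A17.2 cells, against 15.2, 22.0 and 27.8 CPM in unstimulated A17.2 cells, and 26.8, 29.0 and 27.2 CPM in stimulated control cells, against 25.3, 31.0 and 29.0 CPM in unstimulated control cells. Its log2 fold change of 0.38 ± 0.20 in A17.2 cells passed only with the block (adjusted p = 0.554 without and 0.0432 with it), and that of -0.04 ± 0.20 in control cells passed with neither. *Tnfrsf21*, death receptor 6, had 7.76, 12 and 12.2 CPM in stimulated A17.2 cells, against 4.62, 7.89 and 9.15 CPM in unstimulated A17.2 cells, and 9.69, 8.89 and 10.4 CPM in stimulated control cells, against 5.60, 5.92 and 6.53 CPM in unstimulated control cells. It was higher with cytokines in all 3 same-numbered pairs of both kinds of cell, by 0.56 ± 0.26 and 0.68 ± 0.26 on the log2 scale, and passed only with the block (adjusted p = 0.0277 and 0.0134).

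**Figure D3:**
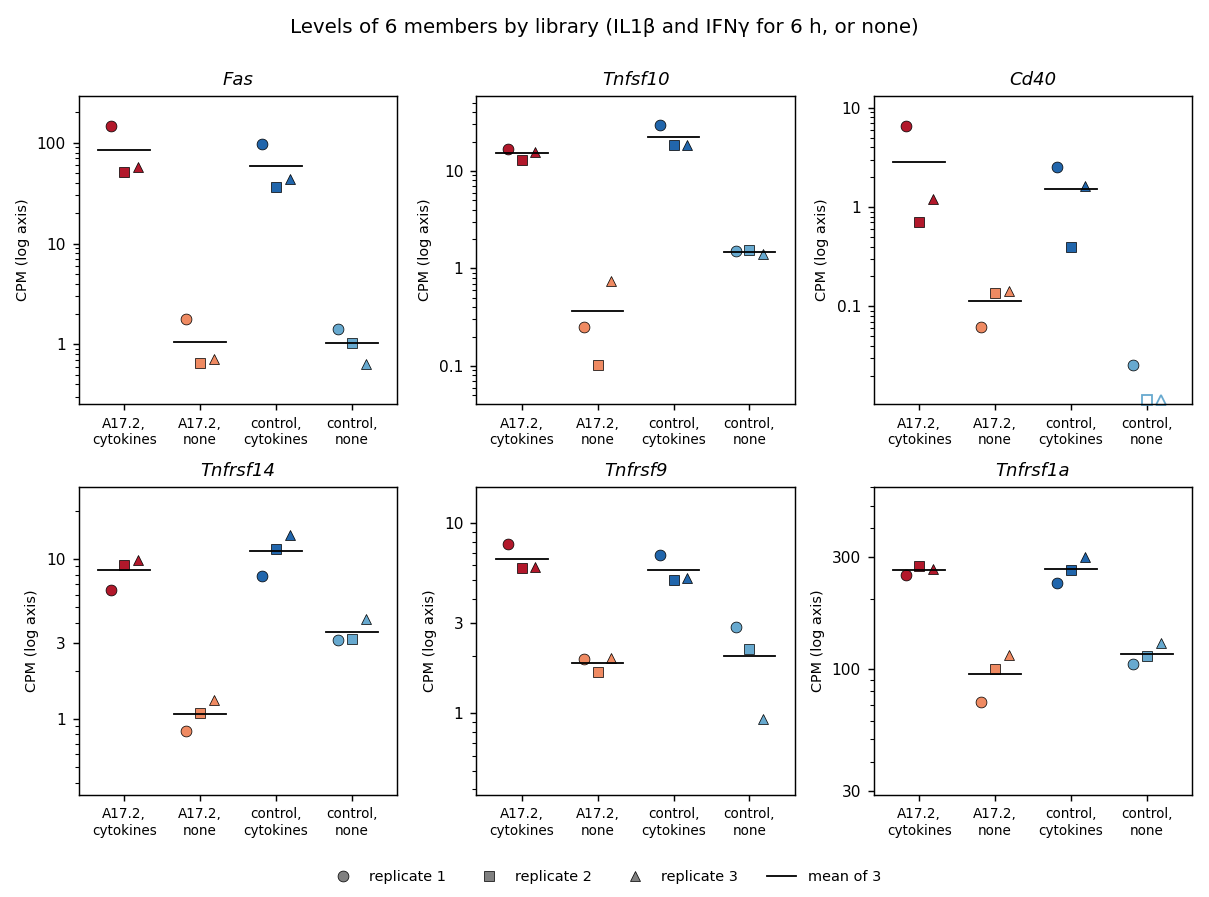
CPM (log axis) of the 6 members that rose with cytokines in both kinds of cell, for each library of A17.2 with cytokines, A17.2 unstimulated, control with cytokines and control unstimulated. Symbols mark the replicate number, lines the mean of 3 libraries and open symbols at the lower edge libraries with 0 reads. The mean of *Cd40* in unstimulated control cells lies below the axis and has no line. The circle of replicate 1 is far above the others in stimulated *Fas* and in *Cd40* of stimulated A17.2 cells.

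Among the receptors that bind TRAF adaptors, *Cd40*, the receptor of CD40 ligand best known from B cells and dendritic cells, was all but absent without cytokines. It had 213, 16 and 34 reads in stimulated A17.2 cells, against 2, 4 and 4 reads in unstimulated A17.2 cells. Control cells had 42, 10 and 34 reads with cytokines, against 1, 0 and 0 reads without. In CPM these were 6.61, 0.704 and 1.19 in stimulated A17.2 cells, against 0.0621, 0.135 and 0.142 in unstimulated A17.2 cells, and 2.51, 0.393 and 1.62 in stimulated control cells, against 0.0259, 0 and 0 in unstimulated control cells. Every stimulated library stood above every unstimulated one, but the stimulated libraries themselves ranged widely. The log2 fold change in A17.2 cells was 4.61 ± 1.00 (adjusted p = 0.0189), and it was 3.04 without replicate 1 of the stimulated group (adjusted p = 0.056). The call in A17.2 cells was also lost without each of the 3 unstimulated libraries (adjusted p = 0.102, 0.0976 and 0.0712). In control cells 86 stimulated reads against 1 unstimulated read gave a ratio of levels of 114, with an exact 95% interval of 19.9 to 4547 for counting error only, and edgeR gave an adjusted p of 0.0189, which was lost without each of the 3 unstimulated libraries (0.1, 0.097 and 0.0744) or without stimulated replicate 1 (0.0595). Because *Cd40* passed the minimum only through its stimulated libraries, it had to differ in this direction if it was tested at all.

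*Tnfrsf14*, the herpesvirus entry mediator HVEM, had 6.36, 9.24 and 9.85 CPM in stimulated A17.2 cells, against 0.838, 1.08 and 1.32 CPM in unstimulated A17.2 cells. In control cells it had 7.84, 11.5 and 14.2 CPM with cytokines, against 3.14, 3.17 and 4.20 CPM without. Stimulated and unstimulated libraries did not overlap in either kind of cell, the stimulated libraries of both kinds overlapped each other, and the lowest levels were those of unstimulated A17.2 cells. On the log2 scale it rose by 2.97 ± 0.30 in A17.2 cells and 1.68 ± 0.28 in control cells (adjusted p = 8.73e-05 and 0.00522), folds of 7.84 and 3.20, and both calls were kept when any 1 library was left out. *Tnfrsf9*, the costimulatory receptor 4-1BB, had 7.79, 5.81 and 5.89 CPM in stimulated A17.2 cells, against 1.92, 1.66 and 1.96 CPM in unstimulated A17.2 cells, and 6.82, 5.00 and 5.13 CPM in stimulated control cells, against 2.85, 2.19 and 0.932 CPM in unstimulated control cells. Its log2 fold change was 1.81 ± 0.35 in A17.2 cells and 1.49 ± 0.35 in control cells (adjusted p = 0.00898 and 0.0379). In A17.2 cells the call was lost without unstimulated replicate 2 (adjusted p = 0.0705). In control cells it was lost without 10 of the 12 libraries, each left out in turn, with an adjusted p of up to 0.134 without stimulated replicate 1, and was kept without unstimulated replicate 1 of the control cells and without replicate 1 of stimulated A17.2 cells. With the block both calls were kept (adjusted p = 3.35e-05 and 0.000299).

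*Tnfrsf1b* (TNF receptor 2) had 76.7, 59.4 and 60.6 CPM in stimulated A17.2 cells, against 42.3, 35.0 and 43.0 CPM in unstimulated A17.2 cells. Control cells had 69.5, 55.4 and 64.4 CPM with cytokines, against 64.3, 46.5 and 50.7 CPM without. The A17.2 groups did not overlap and the control groups did. Its log2 fold change was 0.71 ± 0.17 in A17.2 cells (adjusted p = 0.0312) and 0.23 ± 0.17 in control cells (adjusted p = 0.755), but the difference between them, 0.48 ± 0.23, did not pass the test (unadjusted p = 0.0644). The call in A17.2 cells was lost without each of the 6 A17.2 libraries (adjusted p = 0.0523 to 0.223) and without stimulated control replicate 3 (0.0503), and it was kept with the block (2.14e-05).

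*Ltbr* had 137, 121 and 129 CPM in stimulated A17.2 cells, against 82.7, 95.2 and 109 CPM in unstimulated A17.2 cells, and 117, 137 and 153 CPM in stimulated control cells, against 96.5, 106 and 115 CPM in unstimulated control cells. It was higher with cytokines in all 3 pairs of both kinds of cell, with log2 fold changes of 0.44 ± 0.14 and 0.36 ± 0.14 that passed only with the block (adjusted p = 0.165 and 0.323 without, 0.00349 and 0.0163 with it). *Tnfrsf12a* went the other way. It had 317, 204 and 126 CPM in stimulated A17.2 cells, against 350, 333 and 208 CPM in unstimulated A17.2 cells, and 360, 239 and 157 CPM in stimulated control cells, against 489, 339 and 239 CPM in unstimulated control cells. In each group replicate 1 was highest and replicate 3 lowest, and every stimulated library was below the unstimulated library of its number. With the block the log2 fold change was -0.53 ± 0.11 in A17.2 cells and -0.52 ± 0.11 in control cells (adjusted p = 0.00308 and 0.00376), and without it the adjusted p was 0.896 and 0.794. *Tnfrsf4* (OX40), at 1.45 ± 0.224 CPM with cytokines and 0.999 ± 0.373 CPM without in A17.2 cells, and at 1.11 ± 0.655 and 0.996 ± 0.389 CPM in control cells, did not pass the test with or without the block. The same held for the decoy receptors of TRAIL in the mouse, *Tnfrsf22* and *Tnfrsf23*, with log2 fold changes of -0.12 ± 0.18 and 0.05 ± 0.23 in A17.2 cells and -0.28 ± 0.18 and -0.17 ± 0.24 in control cells, and for *Tnfsf13os*, with 0.25 ± 0.36 and 0.18 ± 0.38.

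The high values of replicate 1 were not confined to members. *Itgam*, a myeloid integrin gene on the fixed leukocyte list, had 3.57, 1.63 and 1.72 CPM with cytokines and 3.72, 2.20 and 1.53 CPM without in A17.2 cells, and 4.67, 1.34 and 1.81 CPM with cytokines and 3.16, 1.73 and 1.57 CPM without in control cells, while *Ptprc* had 0 to 3 reads in every library. *Dcn*, on the fibroblast list, had 55.7, 16.8 and 12.3 CPM in A17.2 cells with cytokines and 11.7, 8.13 and 6.73 CPM without, with replicate 1 highest in the control groups too. The other markers of these lists above the minimum did not share this. *Pdgfra* was lowest in replicate 1 of every group, at 24.0, 26.1 and 48.0 CPM in stimulated A17.2 cells. *Cd79a* was highest in replicate 1 only in unstimulated control cells. Genes outside these lists varied with the replicate number too. *Birc2*, at 80.4, 33.8 and 51.0 CPM in stimulated A17.2 cells, and *Tank*, at 56.8, 32.6 and 32.2 CPM, were highest in replicate 1 of every group. *Vim*, *Zeb1* and *Rela* were lowest in replicate 1 of every group. Whether what raised such transcripts in replicate 1 has a part in the values of *Fas* and *Cd40* was not tested. Without all 4 libraries numbered 1, an alternative chosen after seeing the data, *Fas* still rose by 6.29 in A17.2 cells and by 5.58 in control cells on the log2 scale (adjusted p = 9.6e-07 and 2.5e-06), whereas *Cd40* in A17.2 cells was at 2.72 and no longer called (adjusted p = 0.105).

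In the fit without the block, A17.2 cells differed from control cells in few members, and the lower ones were *Tnfsf10* and *Tnfrsf14* without cytokines. In unstimulated A17.2 cells 1 member was higher and 2 were lower, where 2.88% of all genes were higher and 3.73% lower. With cytokines 1 member was higher and 0 lower, where 3.36% of all genes were higher and 3.64% lower. The median log2 fold change of the members was -0.15 without cytokines, against -0.01 over all genes, and 0.06 with cytokines, against 0.03. With the replicate block, 1 member was higher and 5 were lower in unstimulated A17.2 cells, where 16.5% of all genes were higher and 18.1% lower. In stimulated cells 3 were higher and 2 lower with the block, where 19.2% of all genes were higher and 19% lower. With so few calls, the members' shares cannot be read as apart from these backgrounds.

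**Figure D4:**
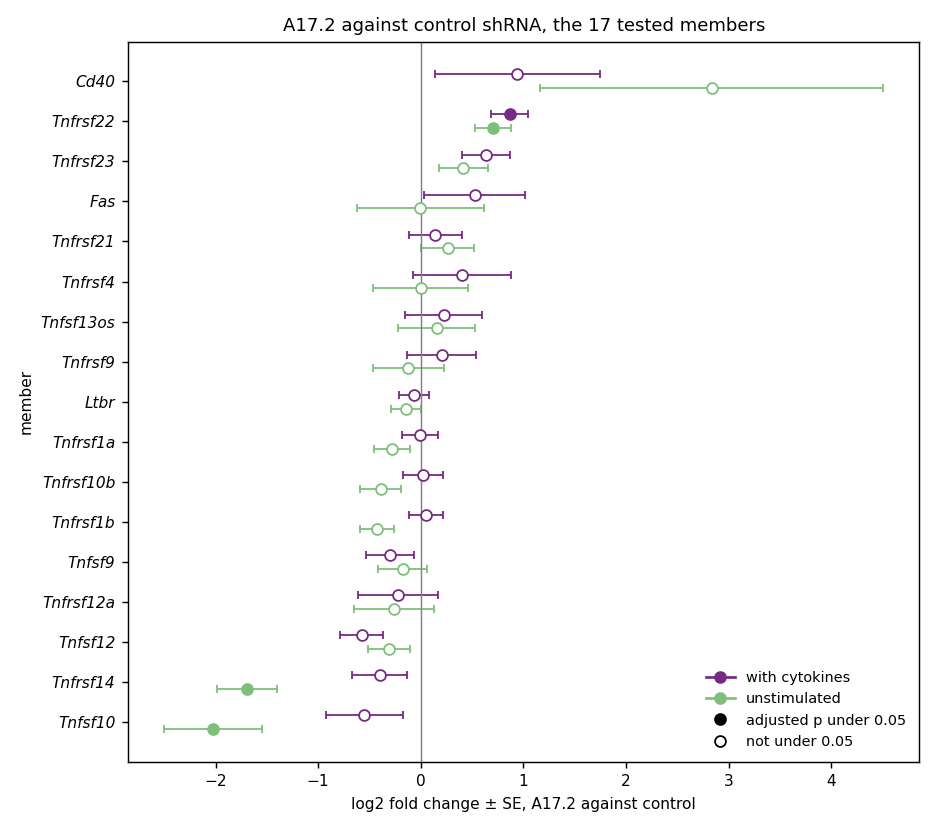
Log2 fold change of A17.2 against control cells for the 17 tested members (horizontal axis, bars ± SE), with the stimulated comparison above the unstimulated one for each member and filled points for an adjusted p under 0.05 in the fit without the block. *Tnfrsf22* is filled on the right in both, and *Tnfrsf14* and *Tnfsf10* are filled on the left in unstimulated cells only.

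In unstimulated cells *Tnfsf10* averaged 0.366 ± 0.339 CPM in A17.2 cells and 1.48 ± 0.0730 CPM in control cells (SD, n = 3 each), from 32 reads in A17.2 cells and 124 reads in control cells. All 3 A17.2 libraries were below all 3 control libraries, and they spread more. The log2 fold change was -2.02 ± 0.48 (adjusted p = 0.0274), and the call was lost without A17.2 replicate 1 or 2 or each of the 3 control libraries (adjusted p = 0.113, 0.0651, 0.0598, 0.0838 and 0.0547). With 1 library left out the value ranged between -3.03, without A17.2 replicate 3, and -1.59, without A17.2 replicate 2. With the block it was kept (0.00111). With cytokines the log2 fold change was -0.55 ± 0.38, with no overlap of the libraries, and passed with neither fit (adjusted p = 0.462 without and 0.0503 with the block). *Tnfsf12* had a log2 fold change of -0.58 ± 0.21 with cytokines, at 4.72, 4.71 and 5.37 CPM in stimulated A17.2 cells, against 5.80, 7.55 and 8.70 CPM in stimulated control cells, and passed with the block (adjusted p = 0.00699) and in DESeq2 (0.044) but not in the fit without the block (0.129). Its unstimulated libraries, at 4.38, 5.28 and 6.26 CPM in A17.2 cells, against 6.07, 6.81 and 6.87 CPM in control cells, overlapped.

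*Tnfrsf14* was lower in unstimulated A17.2 cells by a log2 fold change of -1.70 ± 0.29 (adjusted p = 0.00656), 0.309 times the level of control cells, with no overlap and with the call kept when any 1 library was left out (-1.86 to -1.54). With cytokines its log2 fold change was -0.40 ± 0.27, which passed only with the block (adjusted p = 0.455 without and 0.041 with it). Only with the block were 3 further receptors lower in unstimulated A17.2 cells, with log2 fold changes of -0.42 ± 0.17 for *Tnfrsf1b*, -0.39 ± 0.20 for *Tnfrsf10b* and -0.28 ± 0.17 for *Tnfrsf1a* in the fit without it (blocked adjusted p = 0.00184, 0.0207 and 0.0321, and 0.177, 0.315 and 0.446 without the block). Each of these was below the control library of its number in all 3 pairs. None of the 3 differed with cytokines in either fit, where their log2 fold changes were 0.06 ± 0.17, 0.02 ± 0.20 and -0.01 ± 0.17.

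The decoy receptor *Tnfrsf22* was higher in A17.2 cells in both states. It had 25.1, 17.9 and 18.9 CPM in stimulated A17.2 cells, against 11.6, 10.6 and 11.8 CPM in stimulated control cells, while without cytokines A17.2 cells had 26.1, 17.9 and 23.2 CPM, against 13.9, 12.6 and 14.7 CPM in control cells. No A17.2 library overlapped a control library of the same state. The log2 fold change was 0.87 ± 0.18 with cytokines and 0.70 ± 0.18 without (adjusted p = 0.0177 and 0.0389), folds of 1.82 and 1.63, and the block kept both (8.35e-05 and 0.000353). The stimulated call was lost without A17.2 replicate 1, control replicate 2 or control replicate 3 (adjusted p = 0.062, 0.0826 and 0.0544). The unstimulated call was lost without 9 of the 12 libraries, each left out in turn, with an adjusted p of up to 0.152, and was kept without A17.2 replicate 2 and without replicates 1 and 2 of stimulated A17.2 cells. The neighbouring decoy *Tnfrsf23* had 7.07, 5.02 and 6.38 CPM in stimulated A17.2 cells, against 3.89, 4.48 and 3.52 CPM in stimulated control cells, while without cytokines A17.2 cells had 6.24, 4.81 and 6.87 CPM, against 3.50, 4.66 and 5.30 CPM in control cells. Its log2 fold change was 0.64 ± 0.24 with cytokines, called only with the block (adjusted p = 0.141 without and 0.0245 with it), and 0.42 ± 0.24 without cytokines, not called. Both genes lie side by side on the minus strand in GENCODE M21 (GRCm38), *Tnfrsf22* at chr7:143634806-143649661 and *Tnfrsf23* at chr7:143665809-143685872, and 719 stretches of 50 bases, 17.3% of those of *Tnfrsf22* and 18.0% of those of *Tnfrsf23*, occur in both, so reads may have been shared between them.

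**Figure D5:**
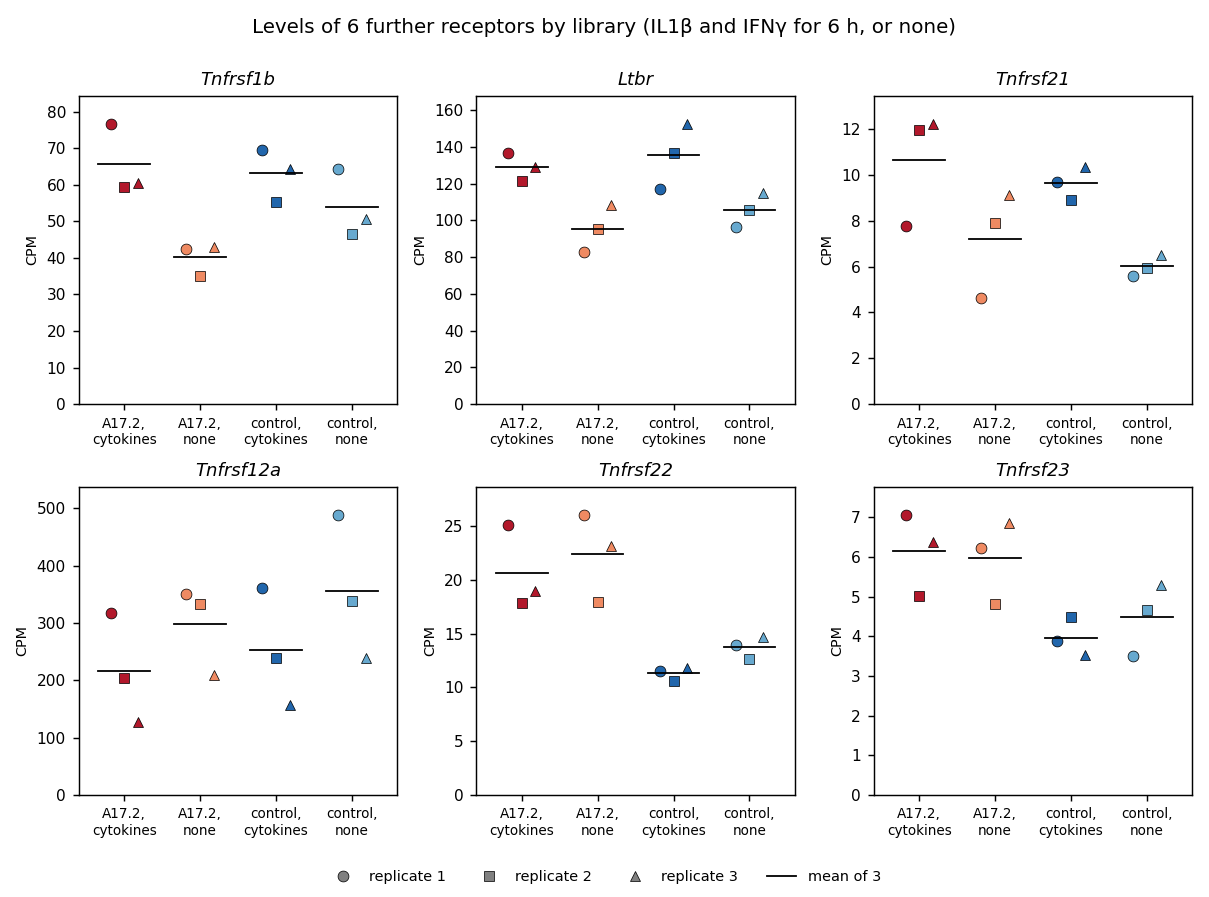
CPM (linear axis from 0) of 6 further receptors in each library of A17.2 with cytokines, A17.2 unstimulated, control with cytokines and control unstimulated, with symbols for the replicate number and lines for the mean of 3 libraries. *Tnfrsf22* lies higher in both A17.2 groups, and in *Tnfrsf12a* the order of the replicate numbers repeats in every group.

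*Fas* had nearly the same level in unstimulated cells of both kinds (log2 fold change -0.01 ± 0.62). With cytokines it was 0.52 ± 0.49 higher on the log2 scale in A17.2 cells, which passed only with the block (adjusted p = 0.624 without and 0.0019 with it), with A17.2 above control in all 3 pairs. Without A17.2 replicate 1 of the stimulated group the log2 fold change turned to -0.13 in the fit without the block. *Cd40* had 10 reads in unstimulated A17.2 cells and 1 read in unstimulated control cells, a ratio of levels of 9.30 with an exact 95% interval of 1.32 to 404 for counting error only, and passed with neither fit (adjusted p = 0.417 and 0.0976). With cytokines its log2 fold change was 0.94 ± 0.80. The remaining tested members, *Tnfsf9*, *Ltbr*, *Tnfrsf4*, *Tnfrsf9*, *Tnfrsf12a*, *Tnfrsf21* and *Tnfsf13os*, passed in neither state with either fit, with log2 fold changes between -0.30 and 0.40 with cytokines and between -0.26 and 0.26 without.

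The cytokine responses of both kinds of cell were then compared directly. The difference of the responses, A17.2 minus control, passed the test for 0 of the 17 members, where 0% of all genes were higher and 0% lower in edgeR's quasi-likelihood test. At an unadjusted p under 0.05 there were 2 members and 155 genes higher and 0 members and 43 genes lower, of 14990 genes tested, and DESeq2 called 27 genes, none of them a member. The members with an unadjusted p under 0.05 were *Tnfrsf14*, with a difference of 1.29 ± 0.40 on the log2 scale, and *Tnfsf10*, with 1.47 ± 0.61 (unadjusted p = 0.00736 and 0.0326). At the same unadjusted limit the fit with the block had more, with 4 members and 974 genes higher and 0 members and 491 genes lower. With the replicate block 1 member was higher and 0 lower, where 0.46% of all genes were higher and 0.0133% lower, and that member was *Tnfrsf14* (adjusted p = 0.0161), with *Tnfsf10* at 0.266. Both genes started lower in A17.2 cells, with means of 1.08 ± 0.239 CPM for *Tnfrsf14* in unstimulated A17.2 cells and 3.50 ± 0.602 CPM in unstimulated control cells, and reached 8.49 ± 1.87 CPM in stimulated A17.2 cells and 11.2 ± 3.20 CPM in stimulated control cells. The median difference over the members was 0.22, against 0.02 over all genes.

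Genes on a list of adaptors and signalling genes linked to these receptors also rose with the cytokines. The list was chosen with earlier results of these data known. It holds NF-κB subunits and inhibitors, and IL1β activates NF-κB. Whether signalling through the members had a part in these rises was not tested. Of 35 fixed adaptors and signalling genes, all measured, 10 rose and 0 fell in A17.2 cells and 8 rose and 0 fell in control cells, with medians of 0.35 and 0.26 on the log2 scale, where 4.16% and 3.4% of all genes rose. With the block 22 rose and 1 fell in A17.2 cells and 18 rose and 0 fell in control cells, where 12.4% and 11.6% of all genes rose. The lowest adjusted p-values were those of *Nfkbia*, which encodes the inhibitor IκBα (log2 fold change 2.28 ± 0.19 in A17.2 cells and 1.72 ± 0.18 in control cells), *Birc3*, which encodes cIAP2 (2.00 ± 0.17 and 1.30 ± 0.17), *Relb*, an NF-κB subunit (1.13 ± 0.16 and 0.92 ± 0.16), and *Nfkb1*, the p105 and p50 subunit (0.93 ± 0.13 and 1.04 ± 0.13). Between the kinds of cell, 0 of the 35 were higher and 3 lower in unstimulated A17.2 cells, namely *Nfkbia* (-0.94 ± 0.18), *Tnfaip3*, which encodes the ubiquitin-editing enzyme A20 (-1.29 ± 0.31), and *Map3k14*, which encodes the kinase NIK (-0.84 ± 0.22). In stimulated A17.2 cells *Birc3* was higher (0.66 ± 0.17) and the deubiquitinase gene *Otulin* lower (-0.64 ± 0.16). Over all genes 2.88% were higher and 3.73% lower without cytokines and 3.36% were higher and 3.64% lower with them, so the counts of 1 higher and 1 lower of 35 with cytokines are near the background. With the block 5 of the 35 were higher and 8 lower without cytokines, and 7 were higher and 9 lower with them, where 16.5% to 19.2% of all genes were called in each direction. The difference of the responses passed for 0 of the 35 without the block and for 1 with it.

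Of 6 relatives whose symbols fall outside the naming pattern, *Eda2r*, the receptor of ectodysplasin A2, and *Relt* were expressed. *Eda2r* had 16.6, 23.4 and 25.8 CPM in stimulated A17.2 cells, against 9.0, 12 and 11.7 CPM in unstimulated A17.2 cells, and between 17.1 and 17.3 CPM in stimulated control cells, against 5.73, 7.04 and 6.49 CPM in unstimulated control cells. It rose with cytokines in both kinds of cell, by 1.01 ± 0.19 and 1.43 ± 0.19 on the log2 scale (adjusted p = 0.00737 and 0.00106), and was higher in unstimulated A17.2 cells than in control cells by 0.77 ± 0.19 (0.0343). Among 5 fixed genes for sheddases and their partners, *Adam17* rose with cytokines in A17.2 cells (0.65 ± 0.15, adjusted p = 0.0278) and in control cells passed only with the block (0.59 ± 0.15, adjusted p = 0.0554 without and 0.000351 with it), and the difference of the responses was 0.06 ± 0.21. *Rhbdf2*, which encodes the ADAM17 partner iRhom2, rose in both, by 0.89 ± 0.17 and 0.88 ± 0.17 (adjusted p = 0.00982 and 0.0139).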

How the data were processed

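Poly(A) RNA of MC38CEA cells was measured in 12 libraries. The authors deposited whole-number read counts per gene symbol, not normalized, and a pair of further tables with their own fold changes and p-values of A17.2 against control, which were not used. The submitters' processing notes name mm10. The strand setting, annotation, counter and aligner were not given in the sources used here, so overlapping genes on opposite strands cannot be told apart. The members and gene lists were chosen with earlier results of these data known.

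Genes with a mean raw count of at least 10 (14990 of 43271) were fitted together in edgeR 4.0.16 (R 4.3.3, limma 3.58.1), with TMM and the quasi-likelihood test over the 4 groups. P-values were adjusted (Benjamini-Hochberg) over all genes tested, with a threshold of 0.05, and SE was taken as the size of the log2 fold change over the root of F. CPM uses TMM-scaled library sizes. Members of very few reads were compared by the ratio of summed reads over library sizes with an exact 95% interval. All 17 tested members were named, with library values for those called with or without the block, the TNF receptors, *Fas*, *Cd40* and *Ltbr*. Positions and exon lengths are from GENCODE M21 on GRCm38 and promoters from RefSeq.

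The labels give replicate numbers. Deviations from group means correlated at 0.33 to 0.86 in all 18 same-numbered pairs of libraries and at -0.77 to 0.47 in 36 others, so by a threshold of 0.1 the numbers were taken as pairs. The main fit did not use this pairing, and results with the block are given beside it. Filled points in the figures and the calls lost without a library come from the main fit. Libraries were not left out in turn with the block, so how stable the blocked calls are was not tested. No replicates agreed within sampling noise (chi-square over its degrees of freedom 21.8 to 260). Alternatives were DESeq2 1.42.0, its size factors in edgeR, other filters, the compared groups alone, the replicate block and leaving out libraries. The tests were tried on simulated data that held no shared effect of the replicate number, so this trial cannot speak to the choice of the block.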

Additional observations from a re-analysis of the deposited data

How the results depend on the processing

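Counts of calls depended most on the replicate block. With it, the members called were 6 in place of 3 for A17.2 against control without cytokines, 5 in place of 1 with cytokines, 11 in place of 7 for cytokines in A17.2 cells and 1 in place of 0 for the difference of the responses, and all genes called were 5191 in place of 990, 5723 in place of 1049, 2634 in place of 682, 2938 in place of 533 (cytokines in control cells) and 71 in place of 0. A fit of the compared groups only called 1 member and 340 genes without cytokines and 0 members and 360 genes with cytokines for A17.2 against control. DESeq2 called 1762 and 1983 genes there, 2 members with cytokines, 835 genes for cytokines in control cells and 27 for the difference, for which edgeR with no filter on low counts called 28. Without the 4 libraries numbered 1, chosen after seeing the data, A17.2 against control gave 1 member and 1518 genes without cytokines and 1660 genes with cytokines, and cytokines in control cells gave 619 genes. Leaving out 1 library at a time gave 1 to 3 members and 449 to 1076 genes (A17.2 against control without cytokines), 0 to 1 and 320 to 1040 (with cytokines), 4 to 7 and 457 to 694 (cytokines in A17.2 cells), 4 to 6 and 328 to 557 (in control cells) and 0 members and 0 to 9 genes for the difference. The single reversal was *Fas* in stimulated A17.2 against control cells, at -0.13 without A17.2 replicate 1 of that group, within a range of -0.13 to 1.09 over the libraries left out. The cytokine calls of *Fas*, *Tnfsf10*, *Tnfrsf14* and *Tnfrsf1a* in both kinds of cell and of *Tnfrsf14* in unstimulated cells were kept under every alternative run. The cause of these differences was not tested. Members with few reads, such as *Cd40*, are limited by depth, and DESeq2's scaling in place of TMM changed no call of a member named here.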
